A study of Mus musculus with 4 samples.

Results

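Pretubular aggregates and renal vesicles are the first structures of each nephron. They form beside the tips of the ureteric bud when induced nephron progenitors stop self-renewing, switch on Wnt4, Fgf8 and Lhx1, and turn from mesenchyme into a polarised epithelium. Wnt4 is a secreted signal that drives this transition, and Lhx1 is a LIM homeodomain factor needed for the vesicle to be patterned. Lhx1 is also made in the ureteric bud, whose tip secretes Wnt11 and carries the receptor Ret. The barcodes described here were chosen from their counts. A member had mitochondrial genes at no more than 10% of its UMIs. It held at least 3 UMIs summed over Lhx1, Wnt4, Bmp2, Npy and Greb1, of which at least 1 was Lhx1 or Wnt4. It also held at most 1 UMI summed over Osr2, Clec18a, Six2, Cited1, Slc12a1, Sim1 and Sim2, genes of progenitors and of later nephron segments. In all, 588 of 15144 barcodes were members. Levels of these 12 genes chose the members and are given as a description only.

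The cells came from mouse kidneys at E14.5, profiled with Drop-seq, which captures single cells in droplets with barcoded beads and reads the 3' ends of their transcripts. The 2 mutant libraries carried the genotype labelled Hoxa9,10,11 and Hoxd9,10,11 -/-, and the 2 other libraries were wildtype. The strain was given as mixed, mostly CD-1 and 129, for all 4. These 6 Hox genes belong to the Abd-B class, which acts in posterior patterning. The series title names lineage infidelity under reduced function of these genes. The labels state neither which part of each gene was altered nor whether the libraries came from separate animals, so a p-value measures only the spread between libraries, which may be technical.

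The libraries held 1061 and 6428 barcodes in the mutants and 2113 and 5542 in the wildtypes, with between 3572346 and 24834658 UMIs each. Members numbered 39 in mutant 1 and 202 in mutant 2, against 97 in wildtype 1 and 250 in wildtype 2. Their summed UMIs were 282089 and 1190962 in the mutants and 620035 and 1836132 in the wildtypes, so mutant 1 had the least precise values. The median depth per member was 5229 and 4950.5 UMIs in the mutants and 5605 and 6071.5 UMIs in the wildtypes. Over all barcodes within the mitochondrial limit it was 2465 and 3003 UMIs in the mutants and 3597 and 3475.5 in the wildtypes. A rule that needs 3 UMIs favours deep barcodes. Across library pairs, 3 barcode sequences were shared, none of them a member's. The median mitochondrial share of members was 2.55% and 4.59% in the mutants and 2.88% and 2.71% in the wildtypes.

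Among the genes that chose the members, Lhx1 (chromosome 11, 84518284 to 84525535, mm10) did most of the work. Its UMIs alone met the threshold in 429 members. Both Lhx1 and Wnt4 were detected in 9 and 41 members of the mutant libraries and in 25 and 62 members of the wildtype libraries. That was 23.1% and 20.3% of the mutant members and 25.8% and 24.8% of the wildtype members. Wnt4 (chromosome 4, 137277489 to 137299726) without any Lhx1 UMI was seen in only 3 and 8 mutant members and 12 and 18 wildtype members. As a measure of stray RNA, Lhx1 was found in 0% and 4.17% of immune-marked barcodes in the mutants and in 4.17% and 0% of them in the wildtypes. Those barcodes were shallower, with median depths of 2543 and 2489.5 UMIs in the mutants and 2949.5 and 3004 UMIs in the wildtypes. No immune-marked barcode held a Wnt4 UMI, of 15 and 48 such barcodes in the mutants and 24 and 45 in the wildtypes.

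Lhx1 gave 528 and 872 CPM in the mutant members and 660 and 592 CPM in the wildtype members, where CPM are UMIs of a gene per 1000000 UMIs of the summed members. Wnt4 gave 60.3 and 75.6 CPM in the mutants and 129 and 85.0 CPM in the wildtypes. Bmp2, a secreted BMP ligand of the distal vesicle, gave 14.2 and 74.7 CPM in the mutants and 91.9 and 103 CPM in the wildtypes. The wildtype level of Wnt4 and Bmp2 was higher in every pair of libraries, while Lhx1 overlapped. Npy, a neuropeptide, gave 60.3 and 76.4 CPM in the mutants and 62.9 and 77.9 CPM in the wildtypes. Greb1 gave 3.54 and 60.5 CPM in the mutants and 45.2 and 38.1 CPM in the wildtypes, and the value of mutant 1 rests on 1 UMI.

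The threshold of 3 UMIs fell inside a continuous range. Exactly 3 marker UMIs were held by 17 and 52 members in the mutants and 34 and 70 in the wildtypes. Just outside, 24 and 132 mutant barcodes and 71 and 161 wildtype barcodes held exactly 2. Uncx, a homeodomain gene outside the rule, gave 124 and 182 CPM in the mutant and 84.7 and 162 CPM in the wildtype members with 3 marker UMIs. In the barcodes with 2 it gave 48.1 and 96.9 CPM in the mutants and 78.8 and 134 CPM in the wildtypes. Gata3, a ureteric factor, gave 67.5 and 99.2 CPM in the mutants and 150 and 65.8 CPM in the wildtypes just inside, and 144 and 60.6 CPM in the mutants and 204 and 81.8 CPM in the wildtypes just outside.

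The name "pretubular aggregate and renal vesicle" did not hold for all members. Among the genes highest in members relative to the other barcodes were Pax8, Jag1 and Ccnd1, which are known from early nephron epithelium. They are not particular to this stage: Jag1 gave 67.4 and 124 CPM in mutant and 132 and 82.8 CPM in wildtype members, and 72.0 and 151 CPM in the mutant and 140 and 100.4 CPM in the wildtype barcodes of later nephron segments. Pou3f3 and Emx2, in the same ranking, were higher in members with the ureteric marking defined next than in those without it, in every library. The same ranking held Gata3, Calb1, Rprm, Ehf, Cldn3 and Gfra1, several of which mark the ureteric bud. The members were therefore split by at least 2 UMIs summed over 6 ureteric genes, Ret, Wnt11, Wnt9b, Gata3 and Krt19 among them, a split chosen after the values were seen and called ureteric marking here. It was met by 82 of the 588 members, 13.9%. Ureteric marking was found in 20.5% and 5.45% of mutant members (8 and 11 barcodes) and in 30.9% and 13.2% of wildtype members (30 and 33 barcodes). The shares overlapped between genotypes (exact permutation test over the 4 libraries, two-sided, p = 0.667). Marked members were deeper, with medians of 12118 and 8433 UMIs in the mutants and 8021 and 12674 UMIs in the wildtypes, against 4542 and 4781 UMIs in unmarked mutant members and 4288 and 5730 UMIs in unmarked wildtype members. Whether marked members are ureteric cells or droplets that hold RNA of both kinds was not tested.

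The 2 kinds of member carried different genes, in mutants and wildtypes alike. Pax8, a paired-box factor of the nephric lineage, gave 138 and 257 CPM in unmarked mutant members and 121 and 171 CPM in unmarked wildtype members. In marked members it gave 25.9 and 70.8 CPM in the mutants and 22.8 and 39.6 CPM in the wildtypes. Uncx gave 216 and 425 CPM in unmarked mutant and 202 and 310 CPM in unmarked wildtype members, against 0 and 19.3 CPM in marked mutant and 3.80 and 33.6 CPM in marked wildtype members. Sfrp2, a secreted Wnt modulator, gave at least 168 CPM in unmarked members of every library and at most 57.9 CPM in marked ones. Calb1, a calcium-binding protein of the ureteric bud and distal tubule, went the other way, with 423 and 1049 CPM in marked mutant and 1349 and 1283 CPM in marked wildtype members, against 0 and 0 CPM in unmarked mutant and 98.1 and 39.1 CPM in unmarked wildtype members. Epcam, Krt8 and Krt18, which mark established epithelium, were also higher in marked members of every library. Pax2, made in both lineages, lay between 193 and 265 CPM in unmarked and between 109 and 294 CPM in marked members. These are descriptions of a split made on counts in the same barcodes and carry no test.

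**Figure D1:**
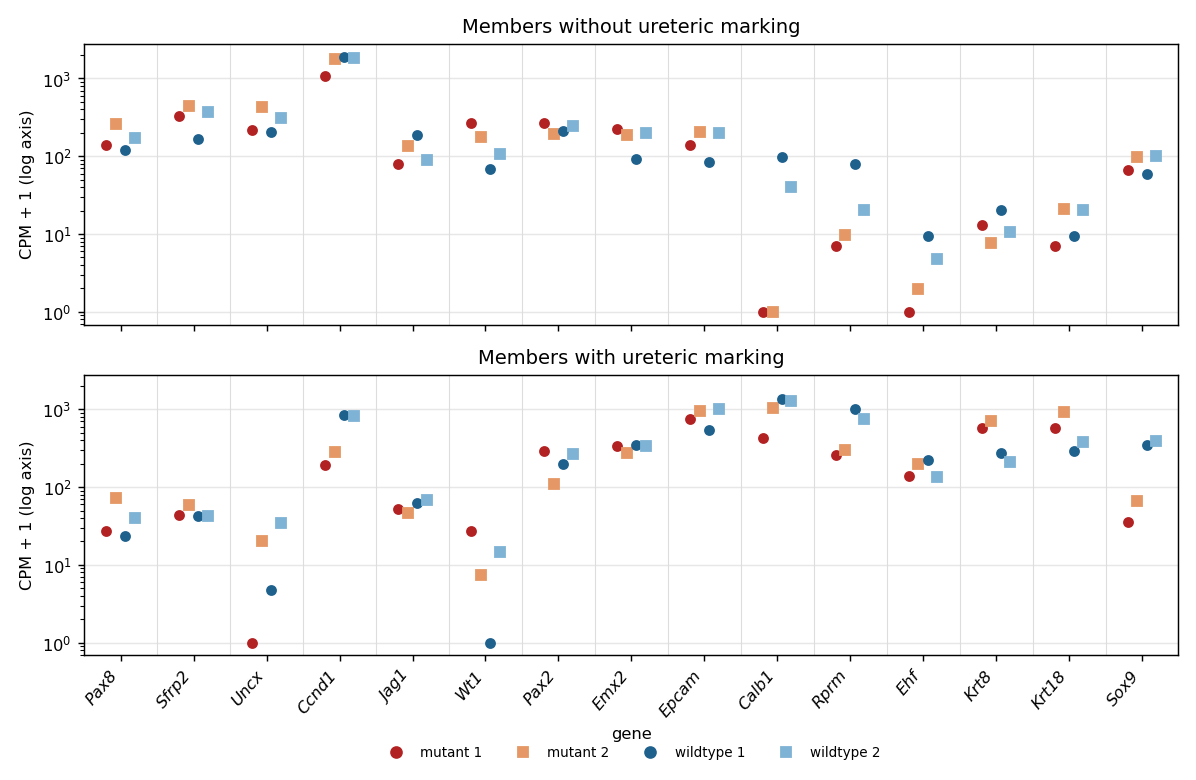
Level of 15 genes outside the rule and outside the marking genes, in members without (top) and with (bottom) ureteric marking. The vertical axis is CPM with 1 added, on a log axis, and each point is 1 library. Pax8, Sfrp2, Uncx and Ccnd1 sit higher in the top panel, and Calb1, Rprm, Ehf, Krt8 and Krt18 sit higher in the bottom one.

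Other genes of the pretubular aggregate and renal vesicle were looked up from a list of 25 genes outside the rule. Fgf8, the FGF ligand that keeps the forming vesicle alive, gave 10.6 and 47.9 CPM in mutant members and 4.84 and 73.5 CPM in wildtype members, so both genotypes had 1 low and 1 high library. Jag1, a Notch ligand, gave 67.4 and 124 CPM in the mutants and 132 and 82.8 CPM in the wildtypes. Dll1, the other Notch ligand of the vesicle, was not detected in mutant 1 and gave 41.1 CPM in mutant 2, against 29.0 and 34.9 CPM in the wildtypes. Lef1, a Wnt effector, gave 14.2 and 69.7 CPM in the mutants and 64.5 and 56.1 CPM in the wildtypes. Ccnd1, the G1 cyclin, gave 709 and 1585 CPM in the mutants and 1450 and 1567 CPM in the wildtypes. The genotypes overlapped in Fgf8, Dll1, Lef1 and Ccnd1, and also in Jag1.

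The share of members among barcodes within the mitochondrial limit was close in the 2 genotypes. It was 4.57% (exact 95% interval 3.27 to 6.20) in mutant 1 and 4.43% (3.85 to 5.07) in mutant 2, against 4.98% (4.05 to 6.04) in wildtype 1 and 4.96% (4.38 to 5.60) in wildtype 2. The intervals are Clopper-Pearson and cover counting error only. The mean was 4.50% ± 0.0985 in mutants and 4.97% ± 0.0117 in wildtypes (SD, n = 2 each), and the exact two-sided permutation test over the 4 libraries gave p = 0.333, the smallest that 2 against 2 allows. Without the ureteric-marked members the direction turned, with 3.91% ± 0.394 in mutants and 3.87% ± 0.614 in wildtypes (SD, n = 2 each; exact permutation p = 1). With each barcode thinned to 1000 UMIs, the share was 1.10% and 1.74% in the mutants and 1.85% and 1.35% in the wildtypes. With 2000 UMIs it was 3.19% and 4.45% in the mutants and 5.12% and 4.04% in the wildtypes. At equal depth the genotypes therefore overlapped. Thinning left out 126 and 772 mutant and 165 and 754 wildtype barcodes at 1000 UMIs, and 351 and 1638 mutant and 504 and 1674 wildtype barcodes at 2000 UMIs.

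Nephron progenitor barcodes, the pool from which pretubular aggregates arise, differed far more. They were defined by at least 3 UMIs over Six2, Cited1, Crym, Eya1 and Meox2, at least 1 of them Six2 or Cited1, and at most 1 UMI of the 5 marker genes. There were 0 and 7 in the mutants against 260 and 656 in the wildtypes. Per member this was 0.0173 ± 0.0245 progenitor barcodes in mutants and 2.65 ± 0.0399 in wildtypes (SD, n = 2 each; exact two-sided permutation p = 0.333, the smallest possible). The ratio is given this way up because mutant 1 held no progenitor barcode. Progenitors were defined by genes known to be lower in these mutants, so fewer progenitor cells and less of these RNAs per cell cannot be told apart. The share of members, by contrast, was 0.906 times the wildtype mean in mutants.

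**Figure D2:**
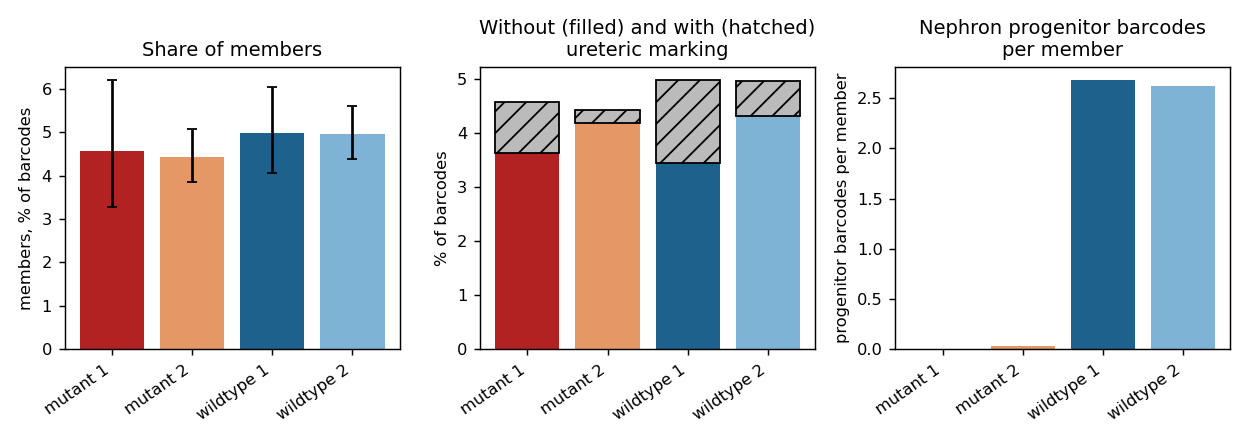
Left, members as a percentage of barcodes within the mitochondrial limit, with exact 95% intervals that cover counting error only. Middle, the same percentage split into members without (filled) and with (hatched) ureteric marking. Right, nephron progenitor barcodes per member. Each bar is 1 library. Member shares run from 4.43% to 4.98%, while progenitors per member are at most 0.0347 in mutants and at least 2.62 in wildtypes.

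Within the members, 11 genes passed edgeR's quasi-likelihood test between genotypes (Benjamini-Hochberg adjusted p under 0.05), 0.126% of the 8746 tested. Of these, 5 rose and 6 fell in mutants. The genes that rose were Hoxd11, Krt19, Meg3, Igfbp7 and Ptov1. Those that fell were Wnt11, Slco4c1 and 4 haemoglobin chains. The median log2 fold change over all genes tested was 0.03, and 52.1% of them lay above 0. Log2 fold changes are mutant over wildtype. At an unadjusted p under 0.05, 315 genes (3.6%) lay higher and 131 (1.5%) lower in mutants, 446 in all (5.1%).

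Hoxd11 (chromosome 2, 74679557 to 74687016), one of the genes named in the mutant genotype, gave 117 and 222 CPM in mutant members and 38.7 and 25.1 CPM in wildtype members. The mutant libraries lay above both wildtype libraries. The log2 fold change was 2.42 ± 0.41 (SE), with an adjusted p of 0.0216 in edgeR's test. Without ureteric-marked members Hoxd11 gave 180 and 247 CPM in mutants and 56.0 and 32.3 CPM in wildtypes, a log2 fold change of 2.33 with an adjusted p of 0.0759. The level stayed higher in both mutants, and the call was lost. It held in 11 of 17 alternatives, with log2 fold changes from 1.96 to 2.89. Other losses came with libraries blocked by replicate number, with at least 2 marker UMIs and in members with both Lhx1 and Wnt4. The call was also lost without mutant 2 and without members holding genes of other cell types. A read at the 3' end can come from an altered allele, so these levels check neither the genotype nor the function of the genes.

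The other targeted genes did not pass the test. Hoxd10 gave 53.2 and 74.7 CPM in mutant members and 30.6 and 24.0 CPM in wildtype members (log2 fold change 1.23, adjusted p = 0.617 in edgeR). Hoxa10 gave 63.8 and 126 CPM in mutants and 127 and 149 CPM in wildtypes (log2 -0.56, adjusted p = 0.992). Hoxd10 was separated between genotypes and so was Hoxa10, by a narrow gap. Hoxa9 (92.2 and 181 CPM in mutants, 145 and 117 CPM in wildtypes) and Hoxd9 (60.3 and 51.2 CPM in mutants, 45.2 and 55.6 CPM in wildtypes) overlapped. Hoxa11, which has an antisense partner that counts without stated strand cannot separate, gave 28.4 and 42.8 CPM in mutants and 9.68 and 45.2 CPM in wildtypes. Of 4 other Abd-B class genes tested, 4 lay above 0 with a median log2 of 0.81 and none passed, among them Hoxc9 at 0.99 and Hoxc11 at 0.99. Of 15 Hox genes of paralog groups 1 to 8, 9 lay above 0 with a median of 0.33 and none passed. Hoxc6 gave 21.3 and 37.8 CPM in mutants and 9.68 and 7.08 CPM in wildtypes (log2 1.89, adjusted p = 0.424). Hoxc8 gave 67.4 and 42.0 CPM in mutants and 16.1 and 14.7 CPM in wildtypes (log2 1.70, adjusted p = 0.424).

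Meg3 (chromosome 12, 109541001 to 109571726), an imprinted long noncoding RNA, gave 323 and 254 CPM in mutant members and 69.4 and 37.0 CPM in wildtype members, a log2 fold change of 2.44 ± 0.40 (SE; edgeR adjusted p = 0.0216). Igfbp7 (chromosome 5, 77349240 to 77408041), a secreted binding protein of the insulin-like growth factor family, gave 383 and 276 CPM in mutants and 53.2 and 74.1 CPM in wildtypes (log2 2.29 ± 0.38, adjusted p = 0.0216). Ptov1 (chromosome 7, 44863067 to 44869788) gave 358 and 266 CPM in mutants and 56.4 and 83.9 CPM in wildtypes (log2 2.07 ± 0.38, adjusted p = 0.0461). Meg3 was called in 13 of 17 alternatives, Igfbp7 in 9 and Ptov1 in 8. All 3 calls were lost without mutant 1 (adjusted p = 0.0572, 0.0862 and 0.222) and without barcodes above 20000 UMIs, and that of Ptov1 also without wildtype 1 (0.112). All 3 kept the higher level in mutants without ureteric-marked members, at log2 2.16, 2.13 and 1.99, with adjusted p of 0.138, 0.0937 and 0.0937, so the calls were lost. They were also higher in mutants among the other barcodes, at 2.35, 1.46 and 1.46 (edgeR adjusted p = 0.00341, 0.0303 and 0.0296). Malat1, a nuclear noncoding RNA, moved with them without passing: it gave 5303 and 4213 CPM in mutant members and 1677 and 1313 CPM in wildtype members (log2 1.64, adjusted p = 0.218). Summed with other nuclear noncoding RNAs, the list reached 6094 and 4611 CPM in mutants and 1752 and 1497 CPM in wildtypes. Its part in the higher Meg3, itself a member of that list, was not tested.

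Krt19 (chromosome 11, 100140810 to 100148665), a keratin of the collecting system, gave 60.3 and 63.8 CPM in mutant members and 8.06 and 10.9 CPM in wildtype members, a log2 fold change of 2.57 ± 0.48 (SE; edgeR adjusted p = 0.0465). The call was lost in DESeq2 (adjusted p = 0.0652), without mutant 1 (0.0614) and with at least 2 marker UMIs (0.216), and it held in 9 of 13 alternatives. Nearly all of it came from ureteric-marked members, a split that uses Krt19 itself. There it gave 147 and 470 CPM in mutants and 15.2 and 39.6 CPM in wildtypes, against 0 and 2.90 CPM in unmarked mutant and 2.80 and 0 CPM in unmarked wildtype members. Wnt11 (chromosome 7, 98835112 to 98855195), the Wnt ligand of the ureteric tip, was at 0 and 4.20 CPM in mutant members, 5 UMIs in all, against 48.4 and 37.6 CPM in wildtype members, 99 UMIs (log2 -3.75, edgeR adjusted p = 0.0366). This call held in 7 of 14 alternatives and was lost in DESeq2 (adjusted p = 0.0652) and without barcodes above 20000 UMIs (0.317). In marked members it gave 0 and 25.7 CPM in mutants and 114 and 125 CPM in wildtypes, and in unmarked members 0 and 0.966 CPM in mutants and 0 and 4.51 CPM in wildtypes. The split uses Wnt11 too, so the low level in unmarked members was set by the split. Slco4c1 (chromosome 1, 96816270 to 96872171), an organic anion transporter, had 0 and 2 UMIs in mutant members and 53 and 52 UMIs in wildtype members. Its wildtype level was 31.5 times the mutant level, with an exact interval of 8.50 to 263 that covers counting error only (edgeR adjusted p = 0.0216). The call of Slco4c1 held in 10 of 13 alternatives. The losses came without mutant 2, with at least 2 marker UMIs and with no exclusion UMI. With 5 and 2 UMIs in mutants, the fitted log2 fold changes of Wnt11 and Slco4c1 depend on the prior count.

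Other ureteric genes were also separated by genotype in the marked members, and are given as values chosen after they were seen. Sox9, Etv4 and Etv5, transcription factors high in the tip, gave 34.6 and 64.3, 17.3 and 19.3, and 0 and 0 CPM in marked mutant members, against 346 and 386, 122 and 174, and 141 and 111 CPM in marked wildtype members. Marked mutant members were 8 and 11 barcodes, and the values carry no test.

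The haemoglobin chains, which are red-cell genes, fell in mutant members. Hbb-bs gave 53.2 and 90.7 CPM in mutant members and 1047 and 1151 CPM in wildtype members (log2 -3.94, edgeR adjusted p = 0.000215), and 3 further chains, Hbb-bt, Hba-a1 and Hba-a2, fell by 4.13, 3.71 and 3.81 on the log2 scale. Near-identical chains share reads, so their separate values are uncertain. A single member held 16.4% of the haemoglobin UMIs of mutant 1 and another 4.21% of those of mutant 2, against 96.4% in wildtype 1 and 51.1% in wildtype 2. Any haemoglobin UMI was found in 27 of 39 and 126 of 202 mutant members and in 42 of 97 and 237 of 250 wildtype members. The erythroid markers summed to 216 and 319 CPM in mutant members and 3245 and 4740 CPM in wildtype members, with Hemgn at 0 in every library. Without ureteric-marked members, Hbb-bs gave 60.1 and 96.6 CPM in mutants and 28.0 and 1539 CPM in wildtypes, and the genotypes overlapped (adjusted p = 0.997).

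**Figure D3:**
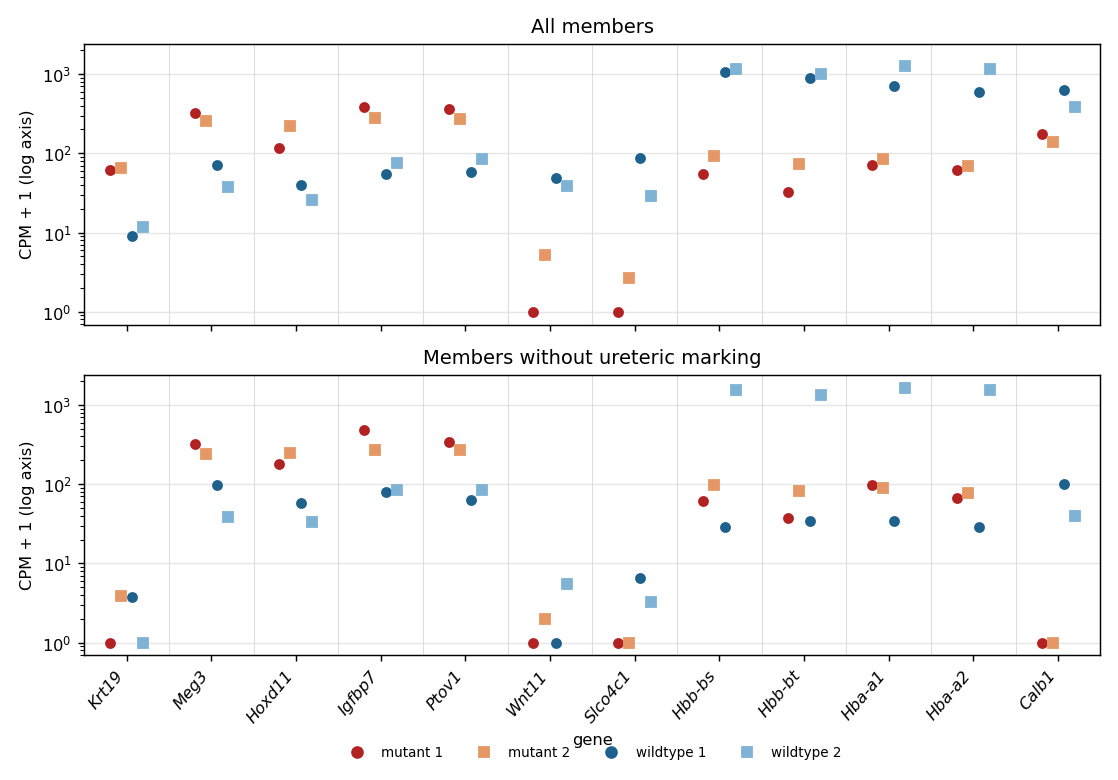
The 11 genes past edgeR's test within members, with Calb1, which passed in members without ureteric marking. The vertical axis is CPM with 1 added, on a log axis, and each point is 1 library. Meg3, Hoxd11, Igfbp7 and Ptov1 are separated between genotypes in the lower panel, without ureteric marking, as in the upper one, while Krt19, Wnt11 and Slco4c1 are at or near 0 there. Krt19 and Wnt11 are among the genes that define the marking, so their low level there was set by the split.

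Without the ureteric-marked members, 1 of 7720 genes passed edgeR's test (0.013%), and 334 had an unadjusted p under 0.05. The gene was Calb1 (chromosome 4, 15881264 to 15908064). It had 0 UMIs in both mutant libraries and 35 and 52 UMIs in the wildtype libraries, or 98.1 and 39.1 CPM. Taking the floor of 3 counts over the 2 mutant libraries, its level was at least 20.7-fold lower in mutants (adjusted p = 0.0291). Dkk1, a secreted Wnt antagonist of the renal vesicle, followed Hoxd11 among the listed genes. In unmarked members it gave 0 and 9.66 CPM in mutants and 64.5 and 87.2 CPM in wildtypes, a log2 fold change of -3.39 with an adjusted p of 0.0871. Over all members Dkk1 gave 24.8 and 10.9 CPM in mutants and 38.7 and 63.7 CPM in wildtypes (log2 -1.87, adjusted p = 0.424). Ureteric-marked members held 60.5 and 19.3 CPM of it in mutants (7 and 3 UMIs) and 3.80 and 1.98 CPM in wildtypes (1 UMI each). When members with at least 3 UMIs of the defining genes of other cell types were left out, 0 genes passed in edgeR, with 291 at an unadjusted p under 0.05 and the lowest adjusted p at 0.0994, for Hoxd11. DESeq2 was not run on that subset.

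Gene lists were read by their counts beside the 5.1% of all genes with an unadjusted p under 0.05, the share of 52.1% above 0 and the median of 0.03. They were chosen with earlier results of these data known. Counts at an unadjusted p under 0.05 follow, as higher and lower in mutants. They were 1 and 1 of 22 pretubular aggregate genes, 1 and 0 of 11 progenitor genes and 0 and 2 of 11 Wnt targets. FGF genes had 0 and 5 of 14, Notch genes 1 and 0 of 12 and BMP genes 0 and 0 of 8. Proximal and podocyte-directed genes had 4 and 0 of 8, medial genes 1 and 0 of 3 and distal genes 0 and 2 of 10. Epithelial genes had 1 and 0 of 22, S-phase genes 0 and 2 of 25 and G2 and M phase genes 1 and 0 of 25. Imprinted growth genes had 4 and 0 of 13 and matrix genes 3 and 0 of 14. Immediate early genes had 1 and 1 of 9 and stress genes 1 and 0 of 10. Targeted Hox genes had 2 and 0 of 6, other Abd-B class genes 0 and 0 of 4 and paralogs 1 to 8 had 3 and 1 of 15. Of the 22 pretubular aggregate and renal vesicle genes tested, 9 lay above 0, the median was -0.17 and 0 passed. Wt1, a zinc-finger factor of the nephron that stays high in podocytes, gave 170 and 155 CPM in mutant members and 38.7 and 80.6 CPM in wildtype members (log2 1.33, adjusted p = 0.471). Of 11 nephron progenitor genes tested in members, 7 lay above 0 with a median of 0.06 and 0 passed. Gas1, a GDNF co-receptor-like protein, gave 117 and 174 CPM in mutants and 49.997 and 88.8 CPM in wildtypes (log2 0.98, adjusted p = 0.760). Spock2, a progenitor proteoglycan, gave 21.3 and 19.3 CPM in mutants and 43.5 and 31.6 CPM in wildtypes (log2 -0.95, adjusted p = 0.981).

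Among the signalling lists, none had a member past the test. Of 11 Wnt and beta-catenin targets, 2 lay above 0 with a median of -0.40, and the smallest p values belonged to Dkk1 and to Tcf7 (log2 -1.42, adjusted p = 0.976). The whole Wnt list summed to 854 and 1893 CPM in mutants and 1753 and 1891 CPM in wildtypes, so the genotypes overlapped. Of 14 FGF signalling genes, 4 lay above 0 with a median of -0.49. The whole FGF list summed to 390 and 752 CPM in mutants and 893 and 733 CPM in wildtypes, which also overlapped. Etv5 gave 3.54 and 30.2 CPM in mutant members and 85.5 and 53.4 CPM in wildtype members (log2 -1.74, adjusted p = 0.489), and Etv4 gave 21.3 and 37.8 CPM in mutants and 74.2 and 77.3 CPM in wildtypes (log2 -1.33, adjusted p = 0.506). In unmarked members these log2 values were -0.55 and -0.26. Of 12 Notch pathway genes, 4 lay above 0 with a median of -0.11. Hes1, the Notch-responsive repressor, gave 379 and 356 CPM in mutants and 181 and 100 CPM in wildtypes (log2 1.37, adjusted p = 0.324), and Rbpj, the DNA-binding partner of Notch, had a log2 of 0.48. Of 8 BMP signalling genes, 4 lay above 0 with a median of 0.15; Smad7 had a log2 of 0.92 and Id2 of -0.38.

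The vesicle is patterned along an axis, so proximal, medial and distal lists were read apart. Of 8 tested genes directed to the proximal nephron and podocyte, 8 lay above 0, with a median of 1.04 in all members and 1.03 without ureteric marking, and 0 passed. Wt1, whose values are given above, was among the 8. A podocyte marker list that overlaps with this one summed to 1556 and 1568 CPM in mutant members and 882 and 797 CPM in wildtype members, and 7 of its 7 tested genes lay above 0 with a median of 0.82. Nphs1, a slit diaphragm gene, gave 10.6 and 5.88 CPM in mutants and 19.4 and 0.545 CPM in wildtypes. Of 3 medial genes tested, 2 lay above 0; Irx3, a homeodomain factor of the medial and proximal tubule, gave 42.5 and 76.4 CPM in mutants and 17.7 and 22.3 CPM in wildtypes (log2 1.52, adjusted p = 0.434), and Wfdc2 had a log2 of -0.28. Of 10 distal genes, 5 lay above 0 with a median of -0.14. Sox9 gave 53.2 and 91.5 CPM in mutant members and 181 and 179 CPM in wildtype members (log2 -1.32, adjusted p = 0.371), and in unmarked members 66.1 and 95.6 CPM in mutants and 58.9 and 101 CPM in wildtypes. Tfap2a had a log2 of -1.35 (adjusted p = 0.769).

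Of 22 epithelial polarity and adhesion genes, 16 lay above 0 with a median of 0.47, and 1 rose, Krt19. Of 25 S-phase genes, 2 lay above 0 with a median of -0.42 and 0 passed. They summed to 1609 and 3201 CPM in mutant members and 3527 and 3178 CPM in wildtype members, so the genotypes overlapped. Without ureteric marking, 7 of the 25 lay above 0. Pcna, the replication clamp, gave 138 and 358 CPM in mutants and 664 and 392 CPM in wildtypes (log2 -1.12, adjusted p = 0.721), and Tyms gave 88.6 and 144 CPM in mutants and 252 and 193 CPM in wildtypes (log2 -0.95, adjusted p = 0.713). Of 25 genes of G2 and M phase, 10 lay above 0 with a median of -0.01; Cenpe had a log2 of 0.74 and Mki67 of 0.69. Of 14 matrix genes, 13 lay above 0 with a median of 0.73 and 0 passed. Col1a2 gave 266 and 293 CPM in mutant members and 90.3 and 88.8 CPM in wildtype members (log2 1.59, adjusted p = 0.127), and Postn gave 39.0 and 34.4 CPM in mutants and 9.68 and 9.26 CPM in wildtypes (log2 1.85, adjusted p = 0.417). Stromal markers, which share matrix genes, moved with them: they summed to 986 and 1180 CPM in mutant members and 481 and 733 CPM in wildtype members, and to 7731 and 7833 CPM in the other mutant and 3076 and 1959 CPM in the other wildtype barcodes, with no marker at 0. Their part in the matrix values was not tested. Of 13 imprinted growth genes, 9 lay above 0 with a median of 0.35, and 1 rose, Meg3.

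Of 9 immediate early genes, 7 lay above 0 with a median of 1.01, which became 0.10 over the 6 tested without ureteric marking. Klf6 had a log2 of 1.14 and Egr1 of -2.28, with Egr1 at 0 and 18.5 CPM in mutants and 108 and 21.8 CPM in wildtypes. Of 10 heat shock and stress genes, 5 lay above 0 with a median of 0.15; Hspb1 had a log2 of 1.83 and Ddit3 of -1.38. Endothelial markers gave 308 and 183 CPM in mutant and 75.8 and 187 CPM in wildtype members, and immune markers 14.2 and 26.9 CPM in mutant and 22.6 and 9.80 CPM in wildtype members. Proximal tubule markers gave 49.6 and 34.4 CPM in mutants and 25.8 and 60.5 CPM in wildtypes. Neural and adrenal medulla markers gave 67.4 and 369 CPM in mutants and 14.52 and 32.7 CPM in wildtypes, adrenal cortex and gonad markers 67.4 and 68.0 CPM in mutants and 58.1 and 109 CPM in wildtypes, and mesothelial markers 291 and 348 CPM in mutants and 168 and 205 CPM in wildtypes. Loop and distal tubule markers gave 893 and 822 CPM in mutants and 1419 and 974 CPM in wildtypes, with Umod and Slc12a3 at 0. Ureteric bud and collecting duct markers gave 1758 and 1077 CPM in mutant and 1826 and 1290 CPM in wildtype members, and 265 and 407 CPM in unmarked mutant and 465 and 448 CPM in unmarked wildtype members.

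**Figure D4:**
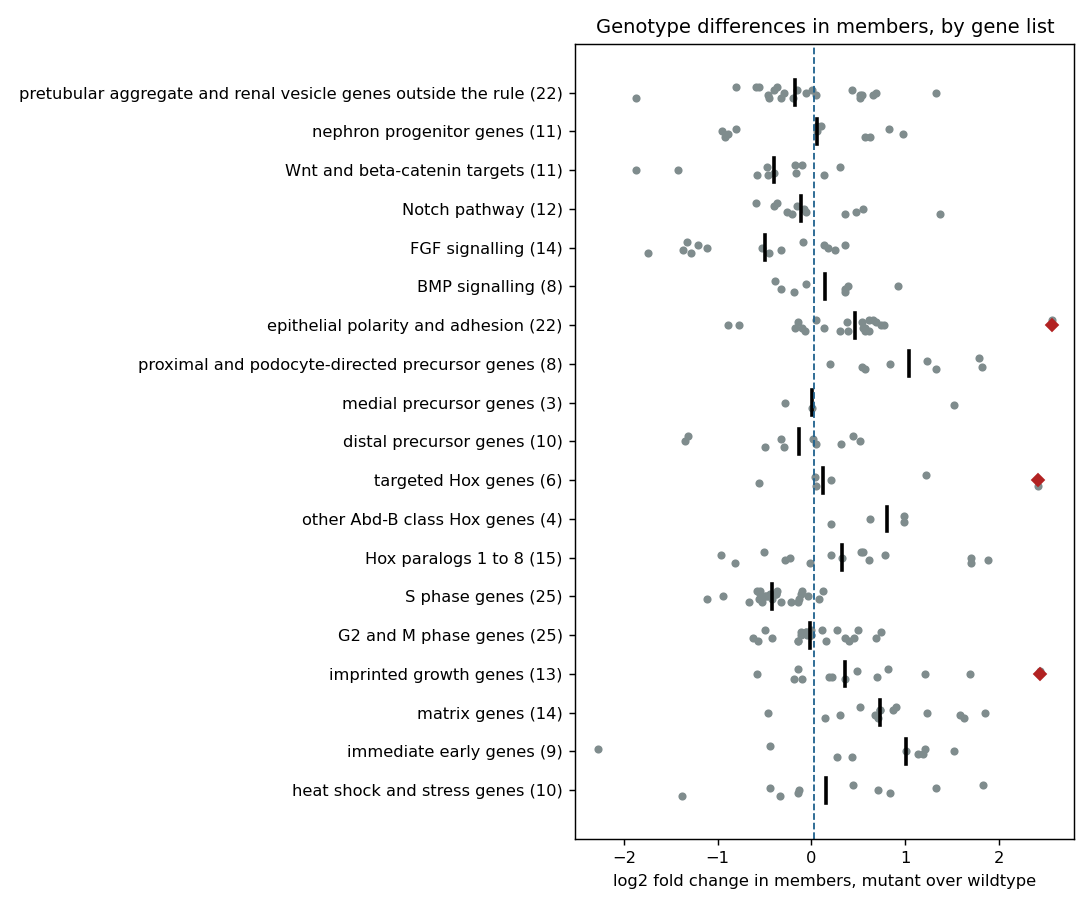
Log2 fold change, mutant over wildtype, of each tested gene within members, by gene list, with the number tested in brackets. Grey points are genes, red diamonds the 3 list genes past edgeR's test, black bars the list medians, and the dashed line the median of all genes at 0.03. The proximal and podocyte-directed list lies furthest to the right with a median of 1.04, and the FGF list furthest to the left with a median of -0.49.

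The genotype difference within members was then set against that in all other barcodes within the mitochondrial limit, as an interaction in 1 fit over 8 sums with the library as a block. It passed for 107 of 12557 genes in edgeR (0.852%), 53 positive and 54 negative, where positive means a higher mutant over wildtype fold in members. DESeq2 called 16, of which 15 were shared, and the fit has few residual degrees of freedom. Of the 107, 49 had member levels that overlapped between genotypes. Of 15 progenitor genes 6 passed, all positive. The member rule limits Six2 and Cited1, and the other wildtype barcodes include the progenitors, so this direction was set by the choice of members and is a description only. In Crym and Spock2 the genotypes lay closer together in members than in the other barcodes, which in wildtypes include the progenitors. Crym, a progenitor marker, gave 0 and 20.2 CPM in mutant and 21.0 and 26.7 CPM in wildtype members, against 6.60 and 8.61 CPM in the other mutant and 74.6 and 107 CPM in the other wildtype barcodes (difference of log2 folds 2.92 ± 0.47 SE, edgeR adjusted p = 8.7e-06). For Crym DESeq2 gave 1.87 with an adjusted p of 0.9999, and without mutant 2 the sign turned (-6.43, adjusted p = 0.831), mutant 1 members holding no Crym UMI. Spock2 had a difference of 2.28 ± 0.41 (adjusted p = 6.23e-05). Against later nephron barcodes the differences were 0.67 for Crym and -0.24 for Spock2, and neither passed.

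Among 25 genes of the pretubular aggregate list, 2 passed, Uncx and Pax2, both positive. Uncx (chromosome 5, 139543494 to 139548179), a paired-type homeodomain gene of committed progenitors and early vesicles, gave 128 and 372 CPM in mutant members and 118 and 234 CPM in wildtype members. In the other barcodes it gave 33.4 and 66.6 CPM in mutants and 85.8 and 137 CPM in wildtypes. The difference of log2 folds was 1.70 ± 0.18 (SE; edgeR adjusted p = 2.85e-13), and 1.45 without ureteric-marked members (adjusted p = 3.08e-12). Against later nephron barcodes the Uncx difference was 0.20 and did not pass. The wildtype progenitor barcodes, counted among the other barcodes, held Uncx at 186 and 253 CPM. Pax2 gave 277 and 182 CPM in mutant and 206 and 250 CPM in wildtype members, against 90.5 and 40.8 CPM in the other mutant and 109 and 147 CPM in the other wildtype barcodes (difference 1.12 ± 0.17, adjusted p = 2.71e-06). The Pax2 call was lost in DESeq2 (1.04, adjusted p = 0.0813), without mutant 2 (0.69, 0.0699) and without wildtype 2 (0.95, 0.293), and the difference against later nephron barcodes was 0.04. Both genes therefore overlapped between genotypes within members and had lower values in both mutants than in both wildtypes outside them (for Uncx a log2 of -1.30, adjusted p = 0.15, which did not pass). Hoxd11 also passed: it gave 118 and 195 CPM in the other mutant and 78.8 and 56.4 CPM in the other wildtype barcodes, and its fold was larger in members by 1.25 ± 0.24 on the log2 scale (adjusted p = 0.000212). DESeq2 gave 1.18 with an adjusted p of 0.239 for Hoxd11, and its call was also lost without mutant 2 and without wildtype 2. Crym, Uncx and Pax2 were named after their values were seen.

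Of 13 ureteric and collecting duct markers, 5 passed with a positive and 1 with a negative sign. Rhcg, an ammonia transporter of the collecting duct, gave 42.5 and 4.20 CPM in mutant and 0 and 0.545 CPM in wildtype members (difference 6.49 ± 1.29 SE, edgeR adjusted p = 0.000501) and was at 0 in unmarked members of every library. It rests on 12 and 5 UMIs in mutant members. The other barcodes held 12 and 16 Rhcg UMIs in mutants and 7 and 154 in wildtypes. Fxyd4, a sodium pump regulator of the collecting duct, gave 124 and 10.9 CPM in mutants and 8.06 and 2.72 CPM in wildtypes (difference 4.0 ± 0.60, adjusted p = 7.15e-06), and its difference turned to -3.56 without ureteric-marked members (adjusted p = 0.991). Unmarked members held 0 Fxyd4 UMIs in mutants and 1 in wildtypes, so that turned sign rests on 1 UMI. Krt19 had a difference of 3.83 ± 0.54 (adjusted p = 3.75e-05), and Spink8 and Sprr2g of 4.05 and 3.59. On the negative side, Wnt11 had a difference of -2.80 ± 0.63 (adjusted p = 0.00364). Plscr2, Car3 and Cyp7b1 had differences of -3.72, -2.77 and -2.60. In DESeq2 the calls of Rhcg, Fxyd4, Sprr2g, Wnt11, Plscr2, Car3 and Cyp7b1 were lost, and those of Krt19 and Spink8 held. The edgeR calls of Rhcg, Spink8, Fxyd4, Krt19 and Sprr2g were lost without wildtype 2. In the other barcodes Krt19 gave 13.2 and 3.21 CPM in mutants and 5.33 and 15.6 CPM in wildtypes. Spink8 gave 11.2 and 2.44 CPM in the other mutant and 2.11 and 13.3 CPM in the other wildtype barcodes.

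Set against later nephron barcodes instead (at least 3 UMIs over Osr2, Clec18a, Slc12a1, Sim1 and Sim2 and at most 1 over Six2 and Cited1; 37 and 347 in mutants, 141 and 246 in wildtypes), the interaction passed for 0 of 10602 genes in edgeR. An unadjusted p under 0.05 was found for 341 of them (3.22%), and DESeq2 called 0, with 42 at an unadjusted p under 0.05. Hoxd11 gave 112 and 212 CPM in the later mutant and 53.9 and 43.0 CPM in the later wildtype barcodes, and its difference of folds was 0.69 ± 0.27 (SE; edgeR adjusted p = 1). Calb1 gave 2.88 and 46.8 CPM in the later mutant and 214 and 70.3 CPM in the later wildtype barcodes. A p that misses the threshold does not show that members and later nephron barcodes respond alike.

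**Figure D5:**
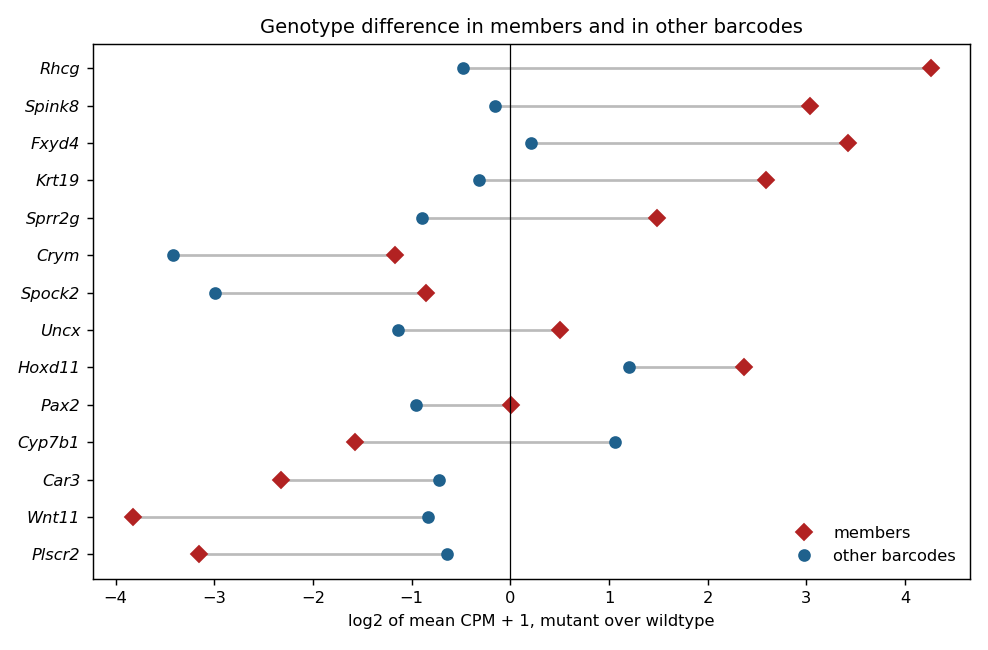
Genotype difference of 14 genes named in the comparison with other barcodes, as the log2 ratio of mean CPM with 1 added, mutant over wildtype. Red diamonds are members and blue circles the other barcodes. Rhcg, Spink8, Fxyd4, Krt19 and Sprr2g lie to the right in members, Wnt11 and Plscr2 to the left, and Crym and Spock2 lie furthest to the left in the other barcodes.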

How the data were processed

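For each library the authors deposited a matrix of whole-number counts of genes by cell barcodes, called UMIs here and not normalized. Per the submitters' processing notes, Bowtie2 2.2.7 and mm10 were used; the annotation and strand handling are not given in the sources used here. Each barcode held at least 500 genes. Counts were summed per library, since cells are not replicates. Sums were tested by edgeR's robust quasi-likelihood test (version 4.0.16, R 4.3.3) after filterByExpr and TMM scaling, with Benjamini-Hochberg adjustment over all genes tested and a threshold of 0.05. DESeq2 1.42.0 was an alternative. SE is the log2 fold change divided by the root of F. The interaction was fitted on 8 sums with the library as a block. The fits were tested on simulated data. Doublets were not removed. The top 5% of Scrublet scores (scanpy 1.11.5, Python 3.11.15) held 28 members, left out as an alternative; the tool's own threshold marked 4 and 3 barcodes in the mutants and 3 and 0 in the wildtypes. Gene positions came from GENCODE vM21 (mm10).

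The members, the 33 gene lists and the tests were chosen with earlier results of these data known. Of 429 list genes, 6 were in no table. Named genes were the targeted Hox genes, the genes of the member rule and, among genes past the test, those at 20 CPM or more on average in the higher genotype whose libraries did not overlap, without predicted, haemoglobin, mitochondrial, ribosomal protein and sex-linked genes. Each list added its called genes, at most 4, or else the 2 of smallest p, and the interaction added 5 in each direction. Genes highest in members had at least 50 CPM there and were ranked by the lowest of 4 library ratios with 5 CPM added. Same-numbered libraries did not deviate together (correlation -0.087). Some genes that these rules name are not reported here.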

Additional observations from a re-analysis of the deposited data

Results flagged for a closer look

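The genotype effect in members differed from that in the other barcodes, by edgeR's interaction test (adjusted p under 0.05), for each of the following genes; values are differences of log2 folds, mutant over wildtype, members minus other barcodes. Positive differences were found for Rhcg (6.49), Spink8 (4.05), Fxyd4 (4.0), Krt19 (3.83), Sprr2g (3.59), Crym (2.92), Spock2 (2.28), Uncx (1.70), Hoxd11 (1.25) and Pax2 (1.12). Negative ones were found for Plscr2 (-3.72), Wnt11 (-2.80), Car3 (-2.77) and Cyp7b1 (-2.60). DESeq2 called Spink8, Krt19, Uncx and Spock2. It did not call Rhcg, Fxyd4, Sprr2g, Crym, Hoxd11, Pax2, Plscr2, Wnt11, Car3 or Cyp7b1. The edgeR call of Krt19 was lost without the top 5% of doublet scores. Without wildtype 2, the edgeR calls held only for Uncx, Crym and Cyp7b1 among the flagged genes. In members, Spink8 gave 70.9 and 32.7 CPM in mutants and 4.84 and 5.99 CPM in wildtypes. Plscr2 gave 3.54 and 0.840 CPM in mutants and 21.0 and 33.8 CPM in wildtypes. Car3 gave 7.09 and 1.68 CPM in mutants and 29.0 and 22.9 CPM in wildtypes. Cyp7b1 gave 7.09 and 7.56 CPM in mutant and 32.3 and 15.2 CPM in wildtype members, against 25.8 and 27.0 CPM in the other mutant and 12.3 and 12.02 CPM in the other wildtype barcodes. Ureteric marking was carried by 20.5% and 5.45% of mutant and 30.9% and 13.2% of wildtype members. Without those members the differences were 0.45 for Spink8, -3.56 for Fxyd4, 3.49 for Krt19, -2.58 for Sprr2g, -3.43 for Plscr2, -1.27 for Wnt11 and -0.51 for Cyp7b1, none past the test, and Rhcg could not be fitted. Uncx (1.45), Hoxd11 (1.06), Pax2 (1.18), Crym (2.82), Spock2 (1.86) and Car3 (-4.49) remained past it. In unmarked members Car3 had 0 and 1 UMIs in mutants and 1 and 40 UMIs in wildtypes. Its remaining call therefore rests on wildtype 2. Fxyd4 and Sprr2g each had 0 UMIs in unmarked mutant and 1 UMI in unmarked wildtype members, so their negative values rest on 1 UMI. For the progenitor genes Crym and Spock2 the direction was set by the choice of members, and leaving out ureteric-marked members does not change that. The wildtype progenitor barcodes, counted among the other barcodes, held Uncx at 186 and 253 CPM and Pax2 at 168 and 206 CPM. Against later nephron barcodes none of the flagged genes passed, Rhcg again having no fit.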

How the results depend on the processing

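The lower member share in mutants kept its direction except with no mitochondrial limit (difference 0.165 percentage points) and without ureteric-marked members (0.0412); leaving out 1 library gave -0.536 to -0.397. Against 11 genes called within members, 53 were called with no filter on low counts, 22 in members with both Lhx1 and Wnt4, 7 with at least 2 marker UMIs, 6 with no exclusion UMI, 7 without the top 5% of doublet scores, 5 without barcodes above 20000 UMIs, 1 without ureteric-marked members and 0 without members holding genes of other cell types. With the replicate block, a pairing by number only, 7 were called, 6 of them shared. Leaving out 1 library gave 13 to 51, with 13 without mutant 1, 44 without mutant 2, 51 without wildtype 1 and 39 without wildtype 2; the lone library of a genotype was then given the spread of the other genotype. DESeq2 called 13. Against 107 interactions, DESeq2 called 16, and 0 were called against later nephron barcodes by edgeR and 0 by DESeq2; leaving out 1 library gave 19 (without wildtype 2) to 205 (without mutant 1), with 123 without mutant 2 and 78 without wildtype 1. Differences that turned sign were Fxyd4 (-3.56) and Sprr2g (-2.58) without ureteric-marked members, Pax2 against later nephron barcodes in DESeq2 (-0.027), Spock2 against them in edgeR (-0.24) and DESeq2 (-0.29), and Crym without mutant 2 (-6.43), where leaving out single libraries gave up to 3.16. The causes were not tested. For Fxyd4 and Sprr2g the turned sign rests on 1 UMI each, as unmarked members held 0 UMIs in mutants and 1 in wildtypes. The interaction against progenitor barcodes could not be fitted, as the mutants held 0 and 7, and no replicate block could stand beside the library block. Mutant 1, with 39 members, limits the depth of every comparison.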

Other observations

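Among barcodes over the mitochondrial limit, which no comparison used, the marker and exclusion rules were met by 18 of 208 and 104 of 1871 in the mutants (8.65% and 5.56%) and by 11 of 164 and 10 of 502 in the wildtypes (6.71% and 1.99%). Members above 20000 UMIs numbered 2 and 1 in the mutants and 0 and 11 in the wildtypes. All 5 marker genes were detected together in 0 and 2 mutant members and in 0 and 3 wildtype members.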
